A study of Homo sapiens with 6 samples.

Results

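The genes that encode translation initiation factors were examined for PLAG1-S and USF2 binding by ChIP-seq of K562 cells, which are an established human line from a chronic myelogenous leukemia. All protein-coding RefSeq genes whose symbols start with EIF1 to EIF6 were taken, apart from the EIF2AK kinases, which gave 52 genes of the 20033 protein-coding genes on chromosomes 1 to 22, X and Y. The symbol rule also brings in a few relatives that act outside initiation, such as EIF4A3, a helicase of the exon junction complex, and EIF5A, which acts in elongation and termination. Peaks were assigned to a gene when they lay inside it or within 3 kb of it. Chromatin came from 2 clones, #4 and #5, which both overexpressed Flag-tagged PLAG1-S together with USF2, so that no library came from cells without the transgenes. Each clone is a single selected line and gave an anti-Flag library for PLAG1-S, a library made with an antibody against USF2, and an input. Per the labels, sequencing gave single-end reads of 50 bp, 42.5 M in every immunoprecipitated library and 55 M in either input library. The anti-Flag libraries hold the tagged transgene product alone, whereas the USF2 antibody cannot tell the overexpressed USF2 from the cells' own. Because both factors were raised in both clones, binding of either one without the other was not analysed here.

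Initiation factors bring the small ribosomal subunit, the initiator tRNA and the mRNA together. eIF1 and eIF1A hold the small subunit open for scanning, eIF2 delivers the initiator tRNA and is recharged by eIF2B, eIF3 is the large scaffold, eIF4F reads the cap, and eIF5 and eIF5B close the process. USF2 is a basic helix-loop-helix leucine zipper factor that recognises the E-box CACGTG. PLAG1 is a zinc finger factor with a G-rich consensus, of which PLAG1-S is a short isoform. The paper describes it as slightly smaller than PLAG1-B, itself a short form that lacks some of the zinc fingers. MYC, which also reads E-boxes, is known for controlling many genes of the translation machinery.

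The 4 lists held 37574 and 29889 PLAG1-S peaks and 9338 and 4369 USF2 peaks, in clones 4 and 5 respectively. PLAG1-S lists ended near a q-value of 0.01 and USF2 lists near 0.05. The median summit held 20.5 to 24 fragments, so that weak peaks rested on few reads. Each value below is the fold enrichment at the summit over the local background, as MACS2 gave it from the merged inputs, which all 4 lists share. No spread over more than 2 clones was available for a gene, so shares and values are given as descriptions, without a test. Peaks of a factor that shared at least 1 bp between the clones were called reproducible and were placed by their clone 4 coordinates, and a co-bound peak was a reproducible PLAG1-S peak within 100 bp of a reproducible USF2 peak.

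PLAG1-S peaks were found in both clones at 39 of the 52 initiation factor genes (75%), against 52.0% of all protein-coding genes. USF2 peaks were found in both clones at 14 genes (26.9%), against 10.3%. Co-bound peaks lay at 13 genes (25%), against 9.98%. In single lists, 44 and 43 of the 52 genes had a PLAG1-S peak in clones 4 and 5 (64.0% and 58.3% of all genes), and 24 and 15 had a USF2 peak (25.3% and 13.6% of all genes). All these shares lay above those of the genome's protein-coding genes. For reproducible peaks the gap was wider for USF2 as a ratio to the background, but wider for PLAG1-S in percentage points. The factors are therefore not ranked by it. The 13 co-bound genes were EIF1, EIF1B, EIF3A, EIF3B, EIF3G, EIF4A1, EIF4E, EIF4EBP3, EIF4G1, EIF4H, EIF5, EIF5A and EIF5A2, and these were also the genes with a peak in all 4 lists.

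**Figure D1:**
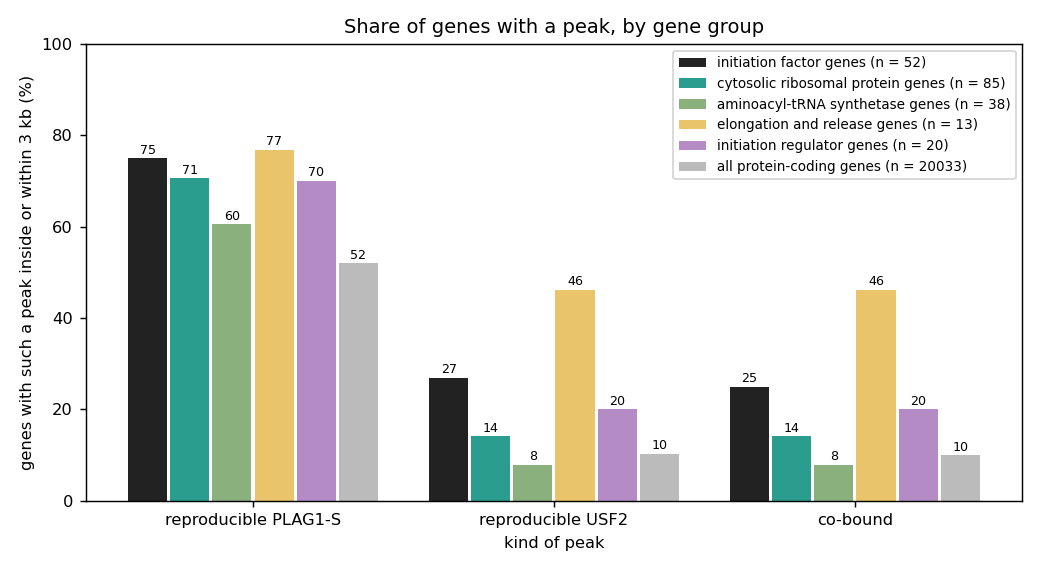
Bars give the percent of genes with a reproducible PLAG1-S, reproducible USF2 or co-bound peak inside or within 3 kb, for 6 sets of genes, with the rounded percent above each bar. Initiation factor genes stand at 75%, 26.9% and 25%, above all protein-coding genes in each kind of peak.

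The typical peak of these genes was about as strong as that of other genes. For the 39 genes with a reproducible PLAG1-S peak, the strongest one had a median fold of 8.27 in clone 4 and 6.91 in clone 5, where all protein-coding genes had 8.17 and 6.91. For the 14 genes with USF2, the medians were 7.41 and 5.06, below the 8.38 and 6.17 of all protein-coding genes. The upper quartile was higher for PLAG1-S, at 18.8 in clone 4 against 13.3 for all genes. A group of strongly bound genes, EIF4G1, EIF5A2, EIF3B, EIF4E, EIF4H, EIF1B and EIF3A, thus sat above a larger number of weakly bound ones.

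**Figure D2:**
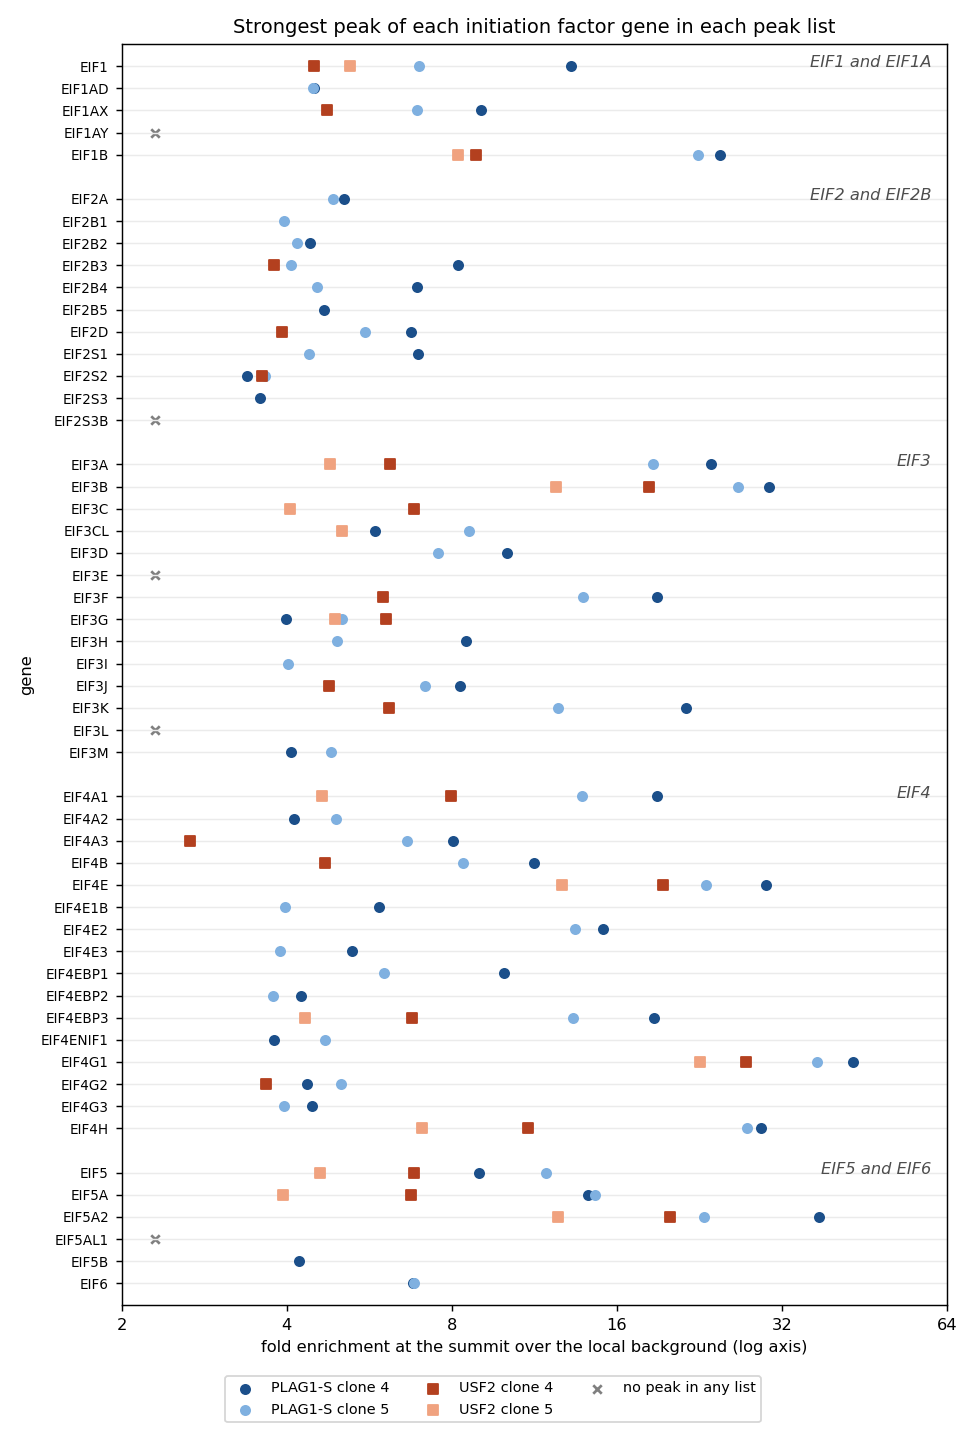
Each row is 1 of the 52 genes, grouped by complex, and each point is the fold enrichment of its strongest peak in 1 of the 4 peak lists on a log axis, including peaks seen in 1 clone only. EIF4G1 has the largest value in every list, from 43.2 for PLAG1-S in clone 4 down to 22.7 for USF2 in clone 5, and no gene of the EIF2 and EIF2B group has a USF2 point from clone 5.

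The E-box CACGTG, which reads the same on both strands, was searched for in RefSeq promoter windows (GRCh38.p14) running from 250 bases before to 50 bases after the gene start. Windows were at hand for 44 of the 52 genes, and 11 of these (25%) held an E-box, against 10.9% of the 15842 protein-coding genes with a window. A gene can have several windows, and counted by window the E-box was in 11 of 60 (18.3%), against 8.34% of the 22198 windows of protein-coding genes. The stretches around the E-boxes of these 11 genes are shown because PLAG1-S peaks covered them at all 11 genes and USF2 peaks at 9 of them in clone 4. Sequence is given 5′ to 3′ on the gene's own strand, with CACGTG in capitals.

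EIF4G1 (chr3:184314432-184314574, plus strand): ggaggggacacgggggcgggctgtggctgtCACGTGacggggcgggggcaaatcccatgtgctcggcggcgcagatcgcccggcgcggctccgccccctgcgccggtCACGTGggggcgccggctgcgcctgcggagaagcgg
EIF5A2 (chr3:170908764-170908854, minus strand): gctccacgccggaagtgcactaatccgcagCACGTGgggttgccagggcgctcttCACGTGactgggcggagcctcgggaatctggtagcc
EIF4E (chr4:98929170-98929235, minus strand): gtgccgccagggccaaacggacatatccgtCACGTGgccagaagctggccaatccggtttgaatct
EIF4H (chr7:74174127-74174192, plus strand): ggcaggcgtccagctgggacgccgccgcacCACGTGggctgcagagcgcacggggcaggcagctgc
EIF1B (chr3:40309623-40309688, plus strand): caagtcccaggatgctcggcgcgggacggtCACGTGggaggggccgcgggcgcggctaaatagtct
EIF4EBP3 (chr5:140547619-140547684, plus strand): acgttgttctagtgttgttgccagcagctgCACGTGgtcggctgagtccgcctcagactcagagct
EIF3K (chr19:38619055-38619120, plus strand): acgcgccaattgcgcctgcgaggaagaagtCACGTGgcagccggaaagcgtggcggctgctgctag
EIF3F (chr11:7987239-7987304, plus strand): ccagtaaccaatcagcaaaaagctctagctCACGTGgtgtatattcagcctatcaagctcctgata
EIF4B (chr12:53006404-53006469, plus strand): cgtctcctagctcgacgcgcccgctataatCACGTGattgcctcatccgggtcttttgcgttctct
EIF2B3 (chr1:44986739-44986804, minus strand): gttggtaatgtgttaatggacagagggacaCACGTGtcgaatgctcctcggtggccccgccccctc
EIF4A3 (chr17:80147214-80147279, minus strand): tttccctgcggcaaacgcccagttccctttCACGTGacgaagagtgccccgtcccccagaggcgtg

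EIF4G1 and EIF5A2 carried a pair of E-boxes in the stretch shown, and EIF4E carried another further upstream in its window. A GT directly before the box, read on either strand, flanked 8 of the 14 boxes (57.1%), against 35.5% of the 1850 E-boxes with both flanks in the windows of protein-coding genes. A reproducible PLAG1-S peak covered an E-box at all 11 genes in both clones, where 72.8% of all 1727 protein-coding genes with an E-box had a clone 4 PLAG1-S peak over it. The clone 4 PLAG1-S summit lay a median of 7.5 bp from the centre of the nearest E-box and at most 24.5 bp away, at EIF4E. In clone 5 the median was 8.5 bp and the farthest was 31.5 bp, at EIF2B3. Over all protein-coding genes the clone 4 median was 10.5 bp, and 75.1% of the PLAG1-S summits fell within 25 bp of the box.

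USF2 peaks over these boxes were fewer than PLAG1-S peaks. In clone 4 a USF2 peak covered the E-box at 9 of the 11 genes (81.8%), with a median distance of 3.5 bp from summit to box. In clone 5 it did so at 6 of the 11 (54.5%), with a median of 7.5 bp. Of all protein-coding genes with an E-box, 50.8% had a USF2 peak over it in clone 4 and 38.8% in clone 5. Their median distances were 9.5 and 8.5 bp. The 6 initiation factor genes of clone 5, EIF1B, EIF4E, EIF4EBP3, EIF4G1, EIF4H and EIF5A2, had the USF2 peak in both clones. EIF3F, EIF3K and EIF4B had it in clone 4 only, with USF2 folds of 6, 6.15 and 3.27 beside clone 4 PLAG1-S folds of 18.9, 21.4 and 11.3. EIF2B3 and EIF4A3 had a PLAG1-S summit 1.5 and 8.5 bp from the E-box in clone 4 and no USF2 peak over it in either list. An E-box under a PLAG1-S summit was therefore seen in this family with and without a called USF2 peak, and the USF2 lists were shorter than the PLAG1-S lists. Whether USF2 was bound below the calling threshold there was not tested.

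Genes with and without the E-box differed in how often their start was bound. With CACGTG in the window, a reproducible USF2 summit lay within 1 kb of the start at 6 of 11 genes (54.5%), against 40.1% of all protein-coding genes with the motif. Without it, 4 of 33 (12.1%) had one, against 3.56%. For PLAG1-S the counts were 11 of 11 with the E-box (74.8% of all genes) and 21 of 33 without it (63.6%, against 37.2%). In both strata the initiation factor genes stood above the genes with the same content of the window. Summits were counted up to 1 kb from the start, so some lay outside the window. Of the 4 genes without CACGTG, only EIF5 had a clone 4 USF2 summit inside it. Those of EIF1, EIF3B and EIF4A1 lay outside, where the sequence was not searched. The PLAG1 consensus was written as GGGGC or GAGGC, then 6 to 8 of any base, then GGG, on either strand. It was found at 17 of the 44 genes with a window (38.6%), below the 45.4% of all protein-coding genes with one, and in 22 of their 60 windows (36.7%), against 38.6% of the 22198 windows. A PLAG1-S summit lay within 1 kb of the start at 14 of the 17 genes with the consensus (82.4%, against 53.5% of all genes with it) and at 18 of the 27 without it (66.7%, against 31.1%). A match could overlap an E-box, and it describes the letters of the window only.

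With all called peaks, the cap-binding group was the most completely covered by PLAG1-S. Of its 16 genes, 15 (93.8%) had a reproducible PLAG1-S peak, against 52.0% of all protein-coding genes. At a −log10 q of at least 10, EIF4A2, EIF4E1B, EIF4EBP2, EIF4ENIF1, EIF4G2 and EIF4G3 no longer had one. The EIF5 and EIF6 group kept all of its genes with a peak there, so the lead depended on the cutoff. Co-bound peaks lay at 5 of the 16 (31.2%), against 9.98%. That share was below those of the eIF1 group (40% of 5 genes) and the EIF5 and EIF6 group (50% of 6 genes). EIF4G1, the scaffold that joins the cap-binding protein to the helicase, had PLAG1-S folds of 43.2 and 37.1 and USF2 folds of 27.5 and 22.7 in clones 4 and 5. Its peak (chr3:184314289-184315539 in clone 4) ranked 49th and 66th in the PLAG1-S lists and 39th and 31st in the USF2 lists. The summit rested on 230 PLAG1-S fragments in clone 4 (exact Poisson 95% interval 201 to 262) and 186 in clone 5 (160 to 215), and on 144 (121 to 170) and 113 (93.1 to 136) USF2 fragments. These intervals cover counting error only. The 4 summits of EIF4G1 lay within 32 bp of each other, and the clone 4 PLAG1-S summit was 80 bp upstream of the start, over the printed E-boxes.

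EIF4E, the cap-binding protein itself, had PLAG1-S folds of 29.9 and 23.3 and USF2 folds of 19.4 and 12.7, with the clone 4 PLAG1-S summit 94 bp upstream of the start. EIF4H, a helper of the eIF4A helicase, had PLAG1-S folds of 29.3 and 27.6 and USF2 folds of 11 and 7.05. EIF4A1, the main helicase, stood at 18.9 and 13.8 with PLAG1-S, while USF2 gave 7.97 and 4.64. For all of these genes both clones showed PLAG1-S above USF2. The EIF4A1 peak (chr17:7572290-7574095) also overlapped the read-through gene SENP3-EIF4A1, and its window held no CACGTG, although PLAG1-S and USF2 summits fell on the same base in clone 4, 308 bp upstream of the start and so outside the searched window.

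EIF4EBP3 was the only one of the eIF4E-binding repressors with co-bound peaks. Its PLAG1-S folds were 18.7 and 13.3 and its USF2 folds 6.78 and 4.32. The 4 summits spanned 4 bp just upstream of the E-box, within 18 bp of the start. That start lies inside the read-through gene ANKHD1-EIF4EBP3. The other repressors had PLAG1-S alone, with folds of 9.96 and 6.01 at EIF4EBP1 and 4.24 and 3.78 at EIF4EBP2. The same held for EIF4E2, a cap-binding homologue that represses translation, at 15.1 and 13.4. EIF4E2 was the strongest PLAG1-S target of the family for which no USF2 peak was called in either clone. Its summit also lay within 1 kb of a start of TIGD1 in both clones, so the peak cannot be assigned to EIF4E2 alone. EIF4B, a second cofactor of the helicase, had PLAG1-S folds of 11.3 and 8.38, and its USF2 peaks were called in clone 4 only, the stronger at 4.7.

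The paralogues of the cap-binding machinery were weaker. EIF4A2, EIF4G2 and EIF4G3 had clone 4 PLAG1-S folds of 4.12, 4.35 and 4.45, against 18.9 for EIF4A1 and 43.2 for EIF4G1. In clone 5 they stood at 4.93, 5.02 and 3.95. EIF4A3 had PLAG1-S folds of 8.03 and 6.63. EIF4E1B had 5.89 and 3.98, with no reproducible summit within 1 kb of its start, and EIF4ENIF1, which carries eIF4E into the nucleus, had 3.79 and 4.69. EIF4E3 was the single gene of the group without a reproducible peak, since its clone 4 and clone 5 peaks did not overlap. The 5 co-bound genes of the group thus had its 5 largest clone 4 PLAG1-S folds, from 18.7 at EIF4EBP3 to 43.2 at EIF4G1, above the 15.1 of EIF4E2.

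Of the 14 eIF3 subunit genes, 10 (71.4%) had a reproducible PLAG1-S peak, 4 (28.6%) a reproducible USF2 peak and 3 (21.4%) a co-bound peak. The shares of all protein-coding genes were 52.0%, 10.3% and 9.98%. EIF3B, a core subunit, had PLAG1-S folds of 30.3 and 26.6 and USF2 folds of 18.3 and 12.4 at a peak (chr7:2353854-2354303) that also overlapped the neighbouring gene SNX8. All 4 summits of that peak fell within 1 bp of each other. The clone 4 PLAG1-S summit lay 748 bp upstream of the start in the promoter table. It lay 7 bp before the 5′ end of the gene interval in the RefSeq gene table, so the peak sat at that annotated 5′ end. A second co-bound EIF3B peak, 233 bp downstream of the start in the promoter table, was weaker, with PLAG1-S at 6.76 and 9 and USF2 at 4 and 3.54. EIF3A, the largest subunit, had PLAG1-S folds of 23.8 and 18.6 and USF2 folds of 6.18 and 4.79, with the clone 4 PLAG1-S summit 2 bp from an end of the gene. No start was at hand for EIF3A, so either end of the gene was used. At EIF3A and EIF3B both factors were thus enriched in both clones, PLAG1-S above USF2.

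EIF3G was the exception in its balance of the factors. Its co-bound peak (chr19:10114315-10114587) had PLAG1-S folds of 3.21 and 5.04 and USF2 folds of 6.08 and 4.9, so that the PLAG1-S to USF2 ratio in clone 4 was 0.529, the only co-bound peak of the family below 1. The clone 4 PLAG1-S value rested on 16 fragments (9.15 to 26), and the summits of the factors lay 367 bp apart. In clone 5 the order of the factors was the opposite, by a small margin. The peak lay outside EIF3G, 534 bp from one end of the gene, over P2RY11 and the read-through PPAN-P2RY11. No start was at hand for EIF3G, so its link to the EIF3G promoter was not tested.

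EIF3K and EIF3F had no USF2 peak in clone 5 and did not count as co-bound, yet they were among the stronger PLAG1-S targets. EIF3K had PLAG1-S folds of 21.4 and 12.5 and a clone 4 USF2 fold of 6.15. EIF3F had 18.9 and 13.9 and a clone 4 USF2 fold of 6. EIF3D, the subunit that can itself bind a cap, had PLAG1-S alone at 10.1 and 7.56, and EIF3J had 8.27 and 7.16 with a clone 4 USF2 peak of 4.77. EIF3H, at 8.49 and 4.94, and EIF3M, at 4.07 and 4.81, had PLAG1-S without USF2. EIF3I had a PLAG1-S peak in clone 5 only, and EIF3E and EIF3L had no peak in any list. Subunits of 1 complex therefore ranged from no peak to a fold of 30.3.

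EIF3C and its near-identical copy EIF3CL were called oppositely. EIF3C had no PLAG1-S peak in either list but 8 USF2 peaks in clone 4 and 2 in clone 5, with folds of 3.52 to 6.84, and those in both clones lay near its far end, 44610 and 47339 bp past the start in clone 4. EIF3CL had reproducible PLAG1-S peaks with strongest folds of 5.8 and 8.61 and USF2 peaks in clone 5 only. Reads that match both copies could have been placed at either, and how such reads were handled is not given in the sources used here, so the values of both genes are uncertain. The USF2 count of 14 includes EIF3C, and the PLAG1-S count of 39 includes EIF3CL.

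In the eIF1 group, EIF1 and EIF1B were co-bound. EIF1B had PLAG1-S folds of 24.7 and 22.5 and USF2 folds of 8.85 and 8.21, with the clone 4 PLAG1-S summit 62 bp upstream of its start. EIF1, which keeps the scanning ribosome from stopping at the wrong codon, had lower values, 13.2 and 6.98 with PLAG1-S against 4.49 and 5.22 with USF2. Its peak lay inside the gene, 658 bp downstream of the start, and the clone 5 USF2 summit was 497 bp from the PLAG1-S summit of that clone. The EIF1B peak was shared with the start of the antisense gene EIF1B-AS1, so it cannot be assigned to 1 of the pair. EIF1AX had PLAG1-S folds of 9.04 and 6.91 with a clone 4 USF2 peak of 4.73, and EIF1AD had 4.49 and 4.46 with no USF2 peak. EIF1AY, which lies on chromosome Y, had no peak. Whether these cells carry that chromosome was not examined, so its missing peak says nothing about binding. The closely related genes EIF1 and EIF1B were thus both bound, EIF1B more strongly in all 4 lists.

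EIF5A2, the tissue-restricted relative of EIF5A, had the second largest clone 4 PLAG1-S fold of the family, 37.4, with 23.1 in clone 5 and USF2 folds of 20 and 12.5. The clone 4 summit held 177 PLAG1-S fragments (152 to 205) and the clone 5 summit 116 (95.9 to 139), counts that are not scaled for the yield of each library. EIF5, the GTPase-activating protein of eIF2, had PLAG1-S folds of 8.96 and 11.9 and USF2 folds of 6.84 and 4.6 at a peak (chr14:103334277-103334924) that also covered the start of its divergent transcript EIF5-DT. EIF5A itself differed. Its own start had a reproducible PLAG1-S peak of 7.58 and 6.94, but its co-bound peak, with PLAG1-S folds of 14.2 and 14.6 and USF2 folds of 6.75 and 3.94, lay 6840 bp past the start, beyond the gene's end, at the start of GPS2. Without that peak EIF5A would not count as co-bound. EIF6, which keeps the ribosomal subunits apart, had PLAG1-S alone at 6.8 and 6.82. EIF5B had a PLAG1-S peak in clone 4 only, and EIF5AL1, a copy of EIF5A, had none.

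No gene of the eIF2 and eIF2B group was co-bound. Among its 11 genes, 6 had a reproducible PLAG1-S peak and 0 had a reproducible USF2 peak. EIF2B3, a subunit of the exchange factor, had the largest clone 4 PLAG1-S fold of the group, 8.2, at the E-box printed above, but its clone 5 fold of 4.07 was below those of several others of the group. EIF2S1, the subunit phosphorylated under stress, had 6.94 and 4.39, EIF2B4 had 6.91 and 4.54, EIF2D had 6.75 and 5.56, EIF2B2 had 4.42 and 4.17, and EIF2S2 had 3.39 and 3.65. In clone 4 alone, USF2 peaks of 3.79, 3.93 and 3.6 were called at EIF2B3, EIF2D and EIF2S2. They lay inside the genes, 115666 and 30734 bp past the start at EIF2B3 and EIF2D. The one at EIF2S2 lay 7229 bp from the nearer end of the gene. EIF2B5 and EIF2S3 had PLAG1-S in clone 4 only, EIF2B1 in clone 5 only, EIF2A had peaks in both clones that did not overlap, and EIF2S3B had none. The PLAG1-S share of this group, 54.5%, was close to the 52.0% of all protein-coding genes. With 11 genes and a USF2 background of 10.3%, a count of 0 is small ground for a comparison, and a difference from the other groups was not tested.

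The clones ranked the genes alike. The strongest PLAG1-S peak was higher in clone 4 at 29 of 39 genes (74.4%, against 72.7% of all protein-coding genes), and the strongest USF2 peak at 13 of 14 (92.9%, against 85.3%). The Spearman correlation of the folds between clones was 0.88 over the 39 genes for PLAG1-S and 0.75 over the 14 for USF2, against 0.86 and 0.89 over all genes. All points share the merged inputs. EIF1 was the only gene with a higher USF2 fold in clone 5, and EIF5, EIF5A and EIF3G were among those with a higher PLAG1-S fold there. The median clone 4 to clone 5 ratio was 1.17 for PLAG1-S and 1.48 for USF2, close to the 1.16 of all genes for PLAG1-S and above their 1.27 for USF2. Lower clone 5 folds were thus seen at most genes of the family and of the genome, and for USF2 the gap was larger in the family.

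**Figure D3:**
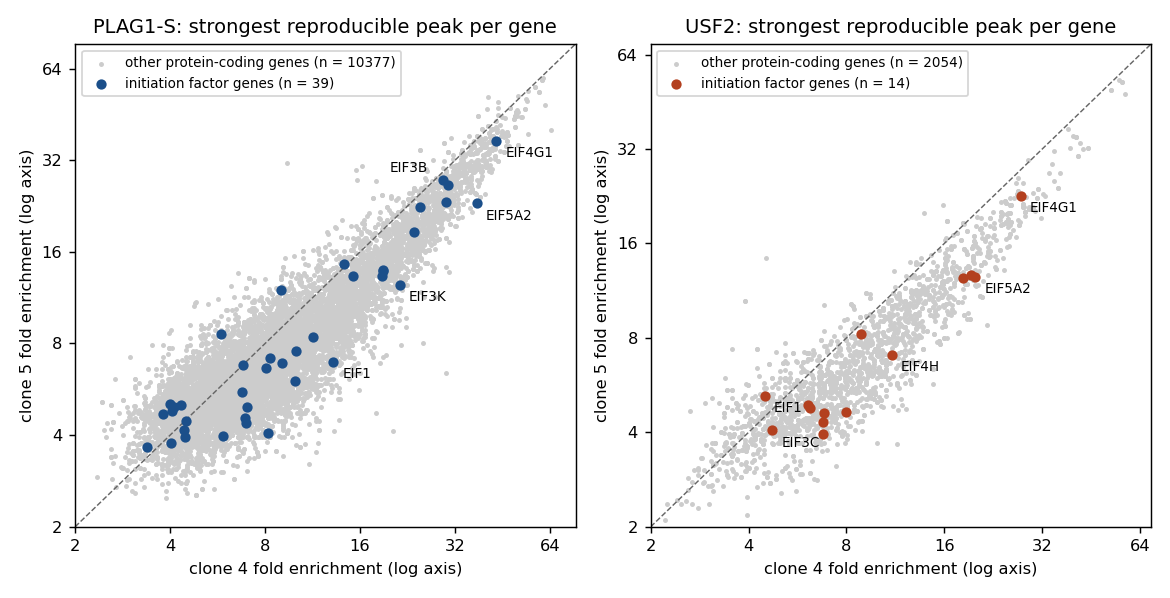
Fold enrichment of each gene's strongest reproducible peak in clone 5 against clone 4, on log axes, for PLAG1-S and USF2, with initiation factor genes in colour, other protein-coding genes in grey and the dashed line at equal folds. EIF4G1 is the top initiation factor gene in both panels, and most points lie below the line, 29 of 39 for PLAG1-S and 13 of 14 for USF2.

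Among single peaks, 53 of the 79 clone 4 PLAG1-S peaks at these genes (67.1%) were met by a clone 5 peak, against 57.1% of all clone 4 PLAG1-S peaks. For USF2 the share was 18 of 43 (41.9%), against 25.8%. Of the 79 peaks, 14 (17.7%) were in the top 10% of the clone 4 PLAG1-S list by fold, and 6 of the 43 (14%) were in the top 10% of the clone 4 USF2 list. The median fold over all the peaks at these genes was 5.08, 5.03, 4.53 and 4.62 in the 4 lists. Over all peaks of those lists it was 5.21, 5, 4.21 and 4.49. The typical peak at these genes was thus about as strong as that of its list.

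Reproducible peaks clustered at the gene starts. Of the 44 genes with a start at hand, 32 (72.7%) had a reproducible PLAG1-S summit within 1 kb of it, against 41.3% of all protein-coding genes with one, and 10 (22.7%) had a USF2 summit there, against 7.54%. With either end of the gene used for the 8 genes that lacked a start, the counts were 38 and 12 of 52, against 39.8% and 7.21% of all genes. Of the 42 PLAG1-S peaks at genes with a start, 37 (88.1%) had the summit within 1 kb and 12 within 100 bp, and 21 of the 37 were upstream. For USF2 it was 13 of 16 within 1 kb, with 10 upstream and 3 downstream. These shares of peaks were not computed for all protein-coding genes, so they describe the family only. The 21 upstream PLAG1-S peaks had a median clone 4 fold of 11.3 and reached 43.2 at EIF4G1. The 16 downstream ones had a median of 6.75 and reached 15.1 at EIF4E2. Where a gene had several starts, the side was taken from the nearest one. Summits counted as upstream could therefore lie inside the gene, as at EIF5 and EIF4G2.

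**Figure D4:**
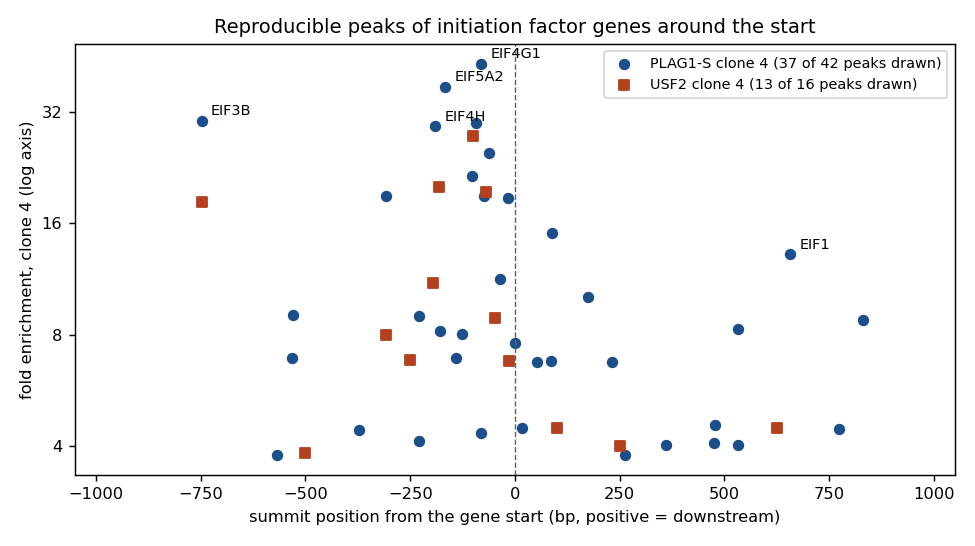
Clone 4 fold enrichment on a log axis against the summit's position from the gene start, in bp, for reproducible peaks within 1 kb of the start at genes with a start in the promoter table. Strong PLAG1-S peaks such as those of EIF4G1, EIF5A2 and EIF4H lie 80, 166 and 190 bp upstream, and EIF3B lies 748 bp upstream of the start plotted, 7 bp before the 5′ end of its gene interval.

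At the 14 co-bound peaks of the 13 genes, PLAG1-S and USF2 summits were a median of 15 bp apart in clone 4, and 13 of the 14 pairs (92.9%) were within 50 bp. The same median of 15 bp, with 81.7% within 50 bp, was found over all 2108 co-bound peaks. In clone 5 the median was 14.5 bp and 11 of the 14 pairs (78.6%) were within 50 bp, against 18 bp and 77% over all co-bound peaks. The wider pairs of clone 5 were those of EIF1, EIF3G and the second EIF3B peak. The PLAG1-S fold was a median of 1.99 times the USF2 fold at these genes and 2.21 times over all co-bound peaks. In this the family resembled the other co-bound sites. The lists were called at different q-value thresholds and with different antibodies, so the ratio does not measure relative occupancy.

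Other genes of translation were listed beside the initiation factors. Of 85 cytosolic ribosomal protein genes, taken by symbol and including some read-through genes, 60 (70.6%) had a reproducible PLAG1-S peak but 12 (14.1%) a USF2 peak, and 12 (14.1%) were co-bound. Of 38 aminoacyl-tRNA synthetase genes, 23 (60.5%) had PLAG1-S and 3 (7.89%) had USF2, all co-bound. Among 13 elongation and release genes, 10 (76.9%) had PLAG1-S and 6 (46.2%) had USF2, all co-bound, a larger share than among the initiation factor genes. These were EEF1A1, EEF1B2, EEF1D, EEF2, EEF2K and GSPT1, which encode elongation factors, the kinase of eEF2 and a release factor, with clone 4 PLAG1-S folds of 10.6 to 22.5. Among 20 regulators of initiation, 14 (70%) had PLAG1-S and 4 (20%) had USF2, all co-bound, namely DDX3X, MKNK2, PABPC4 and PPP1R15A, at 10.7 to 20.6. The ribosomal protein genes thus had a PLAG1-S share near that of the initiation factor genes and a USF2 share nearer to the background. The median strongest PLAG1-S fold in clones 4 and 5 was higher in the elongation and release list, at 15.7 and 11.5, and in the regulator list, at 10.9 and 9.69, than the 8.27 and 6.91 of the initiation factor genes. The largest single fold of the 5 sets was that of EIF4G1 in both clones, 43.2 and 37.1, and the highest outside the initiation factor genes was 34.3 and 27.1, in the ribosomal protein list.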

How the data were processed

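Peaks were called by the authors with MACS2 in each immunoprecipitated library of the 2 clones against the merged inputs on hg38. FastQC, cutadapt, HISAT2 2.0.4, SAMtools, MACS2, bedtools and HOMER are named in the submitters' processing notes. The deposited columns are a fold ratio at the summit, −log10 p and −log10 q from MACS2's Poisson model, a score of 10 times −log10 q, and the summit offset. The number of fragments at each summit was solved from the fold and −log10 p deposited by the authors, within a tolerance of 0.001, and came out whole for at least 99.9% of peaks in each list. This recovery and the overlaps were tested on simulated data.

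Gene intervals and promoter windows were taken from RefSeq tables (GRCh38.p14). Promoter windows were not at hand for EIF2S2, EIF3A, EIF3CL, EIF3E, EIF3G, EIF3H, EIF3L and EIF4EBP1. Windows of chromosome 8 were not used here. Overlaps, distances and motif matches were computed with Python 3.11.15, numpy 2.4.6, pandas 2.3.3 and scipy 1.17.1, and figures with matplotlib 3.10.9. Genes named with values in every list are those with a reproducible USF2 peak and the 10 with the largest clone 4 PLAG1-S fold. Other genes of each complex were named after their values were seen. The members, gene lists and definitions were chosen with earlier results of these data known. Libraries with the same clone number were made from 1 line, which pairs those of PLAG1-S with those of USF2. The signal of the inputs was not analysed here. Library depth is known only from the labels.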

Additional observations from a re-analysis of the deposited data

How the results depend on the processing

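Of 51 alternative values, 40 stayed within 1.5 times the main one. With peaks of either clone in place of both, USF2 rose from 14 to 25 genes, co-binding from 13 to 20, and USF2 summits near the start from 12 to 20. The USF2 share was then 48.1%, against 27.1% of all protein-coding genes, and near the start 38.5%, against 16.3%. At a −log10 q of at least 10, 23 genes had PLAG1-S, 7 had USF2 and 7 were co-bound (EIF1, EIF1B, EIF3B, EIF4E, EIF4G1, EIF4H and EIF5A2), with 23 and 7 near the start for PLAG1-S and USF2. The PLAG1-S share there was 44.2%, against 33% of all protein-coding genes, and the USF2 share was 13.5%, against 5.85%. Near the start they were 44.2%, against 22.6%, and 13.5%, against 4.42%. The co-bound share at that cutoff was 13.5%, against 5.75% of all protein-coding genes, and with either clone it was 38.5%, against 22.1%. With 100 bp between midpoints instead of edges, 8 genes were co-bound (15.4%, against 6.52%). With 100 bp between summits it was 12 (23.1%, against 9.22%). With 1 clone left out, PLAG1-S ranged from 43 to 44 genes, USF2 from 15 to 24, co-binding from 13 to 19, PLAG1-S near the start was 41 and USF2 near the start ranged from 12 to 20. Of all protein-coding genes, 58.3% to 64% had PLAG1-S, 13.6% to 25.3% USF2 and 11.3% to 20.5% a co-bound peak there. Near the start their shares were 45.6% to 47.9% for PLAG1-S and 8.35% to 15.4% for USF2. The highest USF2 values came without clone 5. With a replicate block, in which the factors were compared within each clone and averaged, the values were 43.5 genes for PLAG1-S, 19.5 for USF2 and 16 for co-binding, and 41 and 16 near the start, all within 1.5 times the main ones. As shares the block values were 83.7%, 37.5% and 30.8%, against 61.2%, 19.4% and 15.9% of all protein-coding genes. Near the start they were 78.8% and 30.8%, against 46.7% and 11.9%. The median strongest PLAG1-S fold ranged from 6.91 without clone 4 to 8.27.

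Depth limits the weak peaks, many of which hold about 20 fragments, and the shorter USF2 list of clone 5 limits what counts as co-bound. A missing peak means none was called, not that the factor was absent.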

Other observations

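Several peaks counted for an initiation factor gene lay at the start of a neighbour. At EIF4G1, a weaker PLAG1-S peak in both clones, with folds of 4.98 and 4.13, lay 15744 bp past the start near FAM131A, and at EIF4A1 one of 9.22 and 4.44 lay 6628 bp past the start near CD68. Both genes also had stronger peaks at their own starts. Reproducible PLAG1-S summits of EIF1AD, EIF2S1 and EIF6 lay within 1 kb of starts of BANF1, ATP6V1D and FAM83C-AS1, respectively. Those peaks cannot be assigned to 1 gene of each pair. The 89 pseudogenes of initiation factor genes held 0 reproducible PLAG1-S peaks and 0 reproducible USF2 peaks. Of all 17051 pseudogenes, 2.49% and 0.54% had one inside. At such low shares a count of 0 among 89 is small ground for a comparison, and a difference was not tested.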
